A study of Mus musculus with 12 samples.

Results

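The 10 genes described here act in cell cycle arrest: the inhibitors of cyclin-dependent kinases Cdkn1a, Cdkn1b, Cdkn1c, Cdkn2a, Cdkn2b, Cdkn2c and Cdkn2d, the tumour suppressor gene Trp53, which encodes p53, and the p53 regulators Mdm2 and Mdm4. They were taken by name, and a peak was assigned to a gene when it overlapped the RefSeq span of the gene (GRCm38.p6) or the 5 kb on either side. All 10 matched a span, among 21887 protein-coding genes of the numbered and sex chromosomes. The study immunoprecipitated DNA with an antibody against MACF1, a cytoskeletal linker of actin and microtubules, in MC3T3-E1, a mouse osteoblast cell line, to profile its binding with and without MACF1 knockdown. The 12 samples were 3 immunoprecipitates and 3 matched inputs from control cells and the same from MACF1 knockdown cells, labelled 1, 2 and size3 in each group. One peak list was deposited per immunoprecipitate. The labels give neither how the knockdown was made nor whether the libraries came from separate cultures, so the spread between libraries may be technical. Peaks in genomic DNA measure no expression, so neither the osteoblast identity nor the knockdown was checked.

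Cyclin-dependent kinases drive a cell from one phase of its cycle to the next, and the inhibitors hold them back. The Cip/Kip inhibitors, encoded by the 3 Cdkn1 genes, bind complexes of cyclins with kinases, and the Ink4 inhibitors, encoded by the 4 Cdkn2 genes, bind the kinases of the D-type cyclins. Cdkn2a also encodes Arf, a protein from another reading frame that restrains Mdm2. Mdm2 is a ubiquitin ligase that marks p53 for destruction, Mdm4 is its relative and partner that restrains p53, and Cdkn1a and Mdm2 are themselves textbook targets of p53. In bone, osteoblasts leave the cell cycle as they mature, and p53 and these inhibitors take part in that exit.

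The libraries differed in depth and in list length before any gene was considered. The immunoprecipitates held 10698067 to 33085606 reads after duplicate removal in control and 5575205 to 18454330 in knockdown libraries, and the lists held 198 to 2196 control peaks and 4513 to 21398 knockdown peaks. A peak in or near a protein-coding gene was found for 1.38%, 0.315% and 5.49% of genes in control 1, 2 and size3, and for 43.7%, 7.95% and 35.5% in knockdown 1, 2 and size3. The means were 2.4% ± 2.73 (SD, n = 3) in control and 29% ± 18.7 (SD, n = 3) in knockdown, and the groups did not overlap (difference 26.6 percentage points, exact two-sided permutation p = 0.1, the smallest p that 3 against 3 libraries allow). The difference was 42.3 points within label 1, 7.63 within label 2 and 30 within size3, and 4.34 points (exact permutation p = 0.2) when the longer lists were cut to their 2000 peaks of highest score. Control 1 and 2, with 772 and 198 peaks, stayed whole, so list lengths were not matched. The share of redundant reads in the immunoprecipitates was 0.51 and 0.65 in knockdown 1 and 2, 0.25 and 0.16 in control 1 and 2, and 0.01 to 0.02 in the size3 pair, and its part in these counts was not tested.

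Knockdown 1 had broad peaks over the starts of Cdkn1b, Cdkn2c and Cdkn2d. The 250 bases before their starts in the promoter table are printed with those of Mdm2 and of the outer start of Cdkn2a. No peak covered those of Mdm2 and Cdkn2a, which are the uncovered windows richest in CpG. For Cdkn2d the start in the promoter table lies inside the gene span. Sequences are from RefSeq (GRCm38.p6), 5′ to 3′ towards the gene, with each CpG dinucleotide in capitals.
Cdkn1b, chr6:134920151-134920400, plus strand: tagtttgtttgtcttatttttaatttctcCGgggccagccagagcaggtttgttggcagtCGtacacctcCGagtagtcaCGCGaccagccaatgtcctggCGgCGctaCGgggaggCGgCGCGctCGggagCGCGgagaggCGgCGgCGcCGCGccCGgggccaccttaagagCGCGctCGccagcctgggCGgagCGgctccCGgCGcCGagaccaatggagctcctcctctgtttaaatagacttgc
Cdkn2c, chr4:109666757-109667006, minus strand: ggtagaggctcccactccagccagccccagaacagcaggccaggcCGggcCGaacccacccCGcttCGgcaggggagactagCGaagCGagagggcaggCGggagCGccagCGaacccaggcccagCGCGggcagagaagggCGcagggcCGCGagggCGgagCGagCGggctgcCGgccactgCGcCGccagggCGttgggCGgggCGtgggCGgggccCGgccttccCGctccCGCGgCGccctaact
Cdkn2d, chr9:21291210-21291459, minus strand: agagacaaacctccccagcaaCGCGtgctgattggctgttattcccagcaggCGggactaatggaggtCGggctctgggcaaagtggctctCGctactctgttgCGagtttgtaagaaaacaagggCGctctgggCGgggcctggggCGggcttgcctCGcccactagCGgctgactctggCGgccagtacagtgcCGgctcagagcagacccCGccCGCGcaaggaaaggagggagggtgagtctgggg
Mdm2, chr10:117710759-117711008, minus strand: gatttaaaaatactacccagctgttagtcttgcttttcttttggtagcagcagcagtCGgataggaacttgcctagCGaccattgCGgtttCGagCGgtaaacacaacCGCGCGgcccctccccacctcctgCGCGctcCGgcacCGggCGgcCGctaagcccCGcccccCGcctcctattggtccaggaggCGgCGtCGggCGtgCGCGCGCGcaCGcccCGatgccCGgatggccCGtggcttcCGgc
Cdkn2a, chr4:89294620-89294869, minus strand: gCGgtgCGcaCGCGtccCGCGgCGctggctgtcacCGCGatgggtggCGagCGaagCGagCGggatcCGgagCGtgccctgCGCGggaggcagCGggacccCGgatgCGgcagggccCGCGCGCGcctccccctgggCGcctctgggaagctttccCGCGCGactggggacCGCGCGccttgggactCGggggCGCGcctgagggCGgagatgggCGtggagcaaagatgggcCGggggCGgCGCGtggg
The covered windows held 28 CpG dinucleotides at Cdkn1b, 29 at Cdkn2c and 16 at Cdkn2d. The uncovered window of Mdm2 also held 29, and that of Cdkn2a held 40. The other 7 uncovered windows held 2 to 19, and the inner window of Cdkn2c, which was covered in part, held 6.

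Of the 10 genes, 7 had a peak in at least 1 knockdown library and none had one in a control library. All protein-coding genes gave 57.7% and 6.7% for the same counts, so both member counts lay near the background, and 10 genes are too few to set them apart from it. By library, 5 of the 10 genes had a peak in knockdown 1 (background 43.7%), 1 in knockdown 2 (background 7.95%) and 5 in knockdown size3 (background 35.5%). The arrest genes are short, with a median span of 7.81 kb against 17.2 kb for all genes. Among protein-coding genes of at most 50 kb, which include all 10, the shares with a peak were 36.2%, 3.67% and 28.4% in knockdown 1, 2 and size3, and 50.3% in at least 1 of them. They were 0.496%, 0.112% and 3.25% in control 1, 2 and size3, and 3.81% in at least 1 control library. A peak in 2 or more knockdown libraries was found at 3 genes, Cdkn1c, Cdkn2c and Mdm2 (background 26.1%, or 17.4% among genes of at most 50 kb). All of these had one in both knockdown 1 and knockdown size3 (background 23.4%), and 1, Mdm2, had one in all 3 (background 3.3%). The count of genes with a peak in 2 or more knockdown libraries fell from 3 to 1 without knockdown 1 and to 1 without knockdown size3. The share of all genes was not taken with a library left out.

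**Figure D1:**
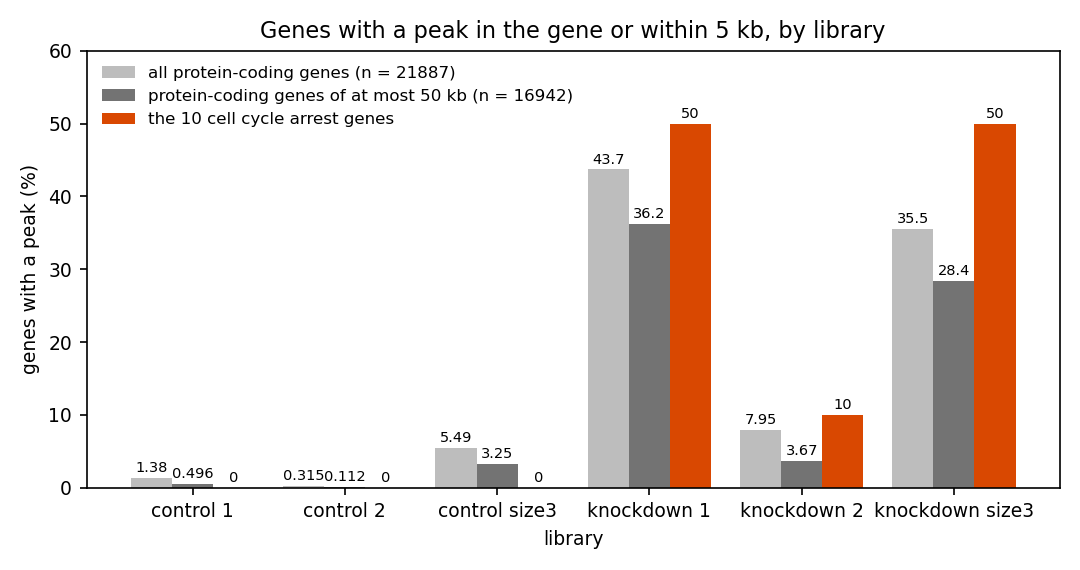
Share of genes (%) with a peak inside them or up to 5 kb away in each of the 6 libraries, for all protein-coding genes, for those of at most 50 kb and for the 10 cell cycle arrest genes. The arrest genes stand at 0% in the control libraries and at 50%, 10% and 50% in knockdown 1, 2 and size3, beside 43.7%, 7.95% and 35.5% of all genes.

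No single gene could pass a test between groups. Fisher's exact test of libraries with and without a peak gives a two-sided p of 0.1 for 3 of 3 against 0 of 3, the pattern of Mdm2, and 0.4 for 2 of 3 against 0 of 3, the pattern of Cdkn1c and Cdkn2c. After Benjamini-Hochberg adjustment over all 21887 genes the adjusted p was 1 for each of the 10 genes. Across the genome 0 genes passed an adjusted or an unadjusted p of 0.05. Where a list holds no peak, it gives no read count either, so a missing peak does not show that the site was not recovered.

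The 15 peaks at the 7 genes lay at different places in them. Peaks over the start of the gene numbered 3, all in knockdown 1, and 6 lay inside genes. A further 2 lay upstream and 2 downstream, and the other two were at Cdkn1c, whose strand the promoter table used here does not give. The authors' false discovery rate was at most 5% for 10 of the 15 peaks. These were 7 of 8 in knockdown 1, 0 of 1 in knockdown 2 and 3 of 6 in knockdown size3. In the whole lists the shares at that limit were 98.9%, 1.13% and 57.8%. A rate of 100% was given to 98.4% of all peaks in knockdown 2, and to 99.7% and 100% in control 1 and 2. Only 3 of the 15 were also within 5 kb of another protein-coding gene: that of Cdkn2d, which neighbours Kri1 and Ap1m2, and the pair near the end of Mdm2 that also lay near Cpm.

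**Figure D2:**
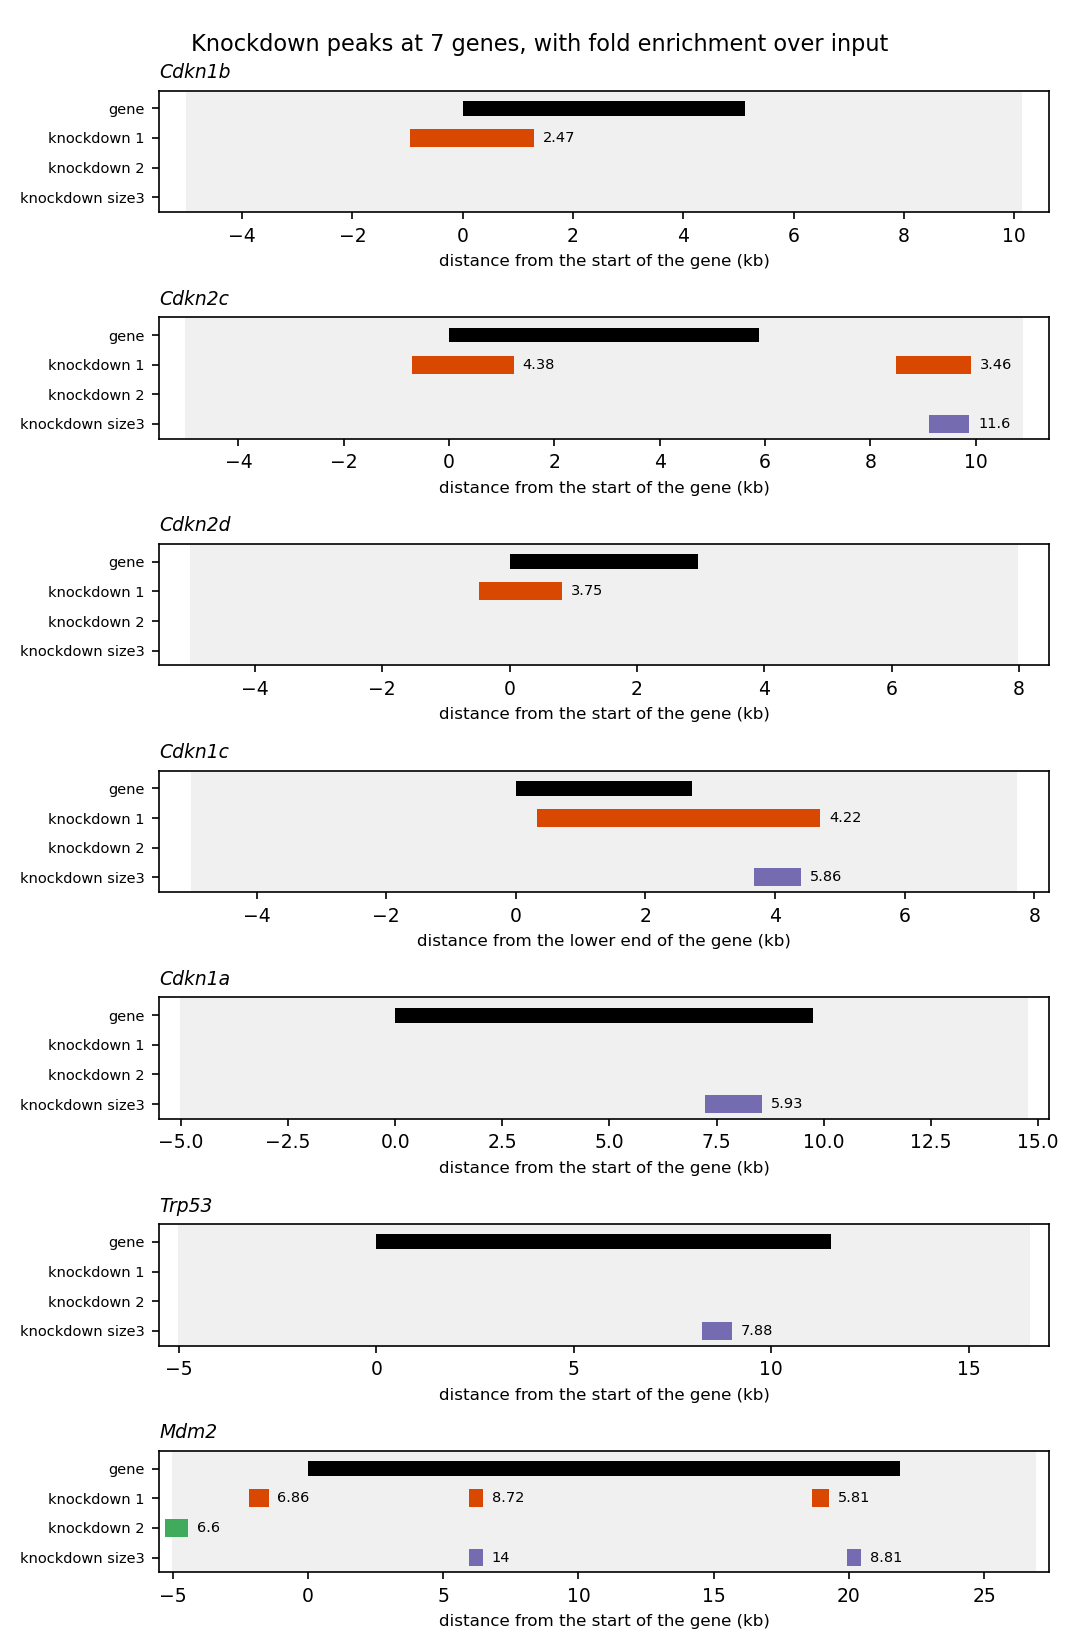
Peaks of knockdown 1, 2 and size3 at the 7 genes with a peak, as bars along the distance from the start of the gene (kb; for Cdkn1c from its lower end), with the gene in black, the window of 5 kb shaded and the fold enrichment over input beside each bar. The bars of knockdown 1 lie over the starts of Cdkn1b, Cdkn2c and Cdkn2d, and those of knockdown 1 and size3 overlap at Cdkn1c, downstream of Cdkn2c and at 1 site inside Mdm2.

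Among the Cip/Kip genes, Cdkn1b, which encodes the inhibitor Kip1 (chromosome 6, 134920401 to 134925525), had 1 peak. It lay in knockdown 1 at 134919439 to 134921703, 2265 bp wide, and covered all 250 bases before the start. Its 195 reads (10.6 RPM, reads per 1000000 reads of the immunoprecipitate) gave a fold enrichment of 2.47, at percentile 0.1 of the fold enrichments of that list, while its width stood at percentile 84.1. The peak was thus among the broad and low ones of its library. In knockdown size3 the nearest peak was 25680 bp from the gene, in knockdown 2 it was 175336 bp away, and in control size3 70299 bp.

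Cdkn1a, which encodes the p53-induced inhibitor Cip1 (chromosome 17, 29090979 to 29100722), had 1 peak, in knockdown size3 inside the gene at 29098204 to 29099530. The peak was 1327 bp wide, held 40 reads (4.89 RPM) and had a fold enrichment of 5.93 and a false discovery rate of 5.65%. Its summit lay 7574 bp from the start of the gene. Neither of the starts in the promoter table, of which the outer has p53 half-sites before it, was covered. Knockdown size3 had a further 4 peaks within 50 kb, the nearest 6916 bp outside the gene, whereas the peaks of knockdown 1 within 50 kb lay in the neighbouring gene Rab44, the nearest at 19583 bp.

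Cdkn1c, which encodes Kip2 and is expressed from the maternal allele (chromosome 7, 143458339 to 143461059), had the widest of the 15 peaks. In knockdown 1 the peak ran over 4377 bp from 143458660 to 143463036 and past the upper end of Cdkn1c, with 311 reads (16.9 RPM), a fold enrichment of 4.22 and a score of 189.15, at percentile 99.3 of the scores of its list. In knockdown size3 a peak of 726 bp at 143462009 to 143462734 lay within the first and 950 bp outside the gene, with 17 reads (2.08 RPM) and a fold enrichment of 5.86. The summits were 2752 bp apart, so both libraries marked the same region but not the same point in it. The false discovery rates were 6.99% and 6.41%, and at a limit of 5% neither peak remained. The nearest control peak was 64061 bp away, in size3.

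Among the Ink4 genes, Cdkn2c, which encodes p18 (chromosome 4, 109660876 to 109666756), had 2 peaks in knockdown 1 and 1 in knockdown size3. The first of knockdown 1 covered the start at 109665526 to 109667452, with 114 reads (6.18 RPM) and a fold enrichment of 4.38, and no peak of knockdown size3 lay there. The second, at 109656855 to 109658270 and 2606 bp beyond the end of the gene, had 116 reads (6.29 RPM) and a fold enrichment of 3.46. It enclosed the peak of knockdown size3 at 109656885 to 109657650, which had 20 reads (2.45 RPM), a fold enrichment of 11.6 and a false discovery rate of 2.02%. The summits of this pair were 43 bp apart. The shared site thus lay beyond the end of Cdkn2c and not at its promoter, and it overlapped no other protein-coding gene.

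Cdkn2d, which encodes p19 of the Ink4 family (chromosome 9, 21288459 to 21291421), had 1 peak, in knockdown 1 at 21290603 to 21291907 over its start. The peak held 76 reads (4.12 RPM) and had a fold enrichment of 3.75 and a false discovery rate of 2.09%. It also covered all 250 bases before the start in the promoter table, which lies inside the gene span. The nearest peaks of knockdown 2 and size3 were 66777 and 81873 bp away.

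Cdkn2a (chromosome 4, 89274473 to 89294619) and Cdkn2b (89306289 to 89311032), which lie 11669 bp apart and encode p16, Arf and p15, had no peak in any of the 6 libraries. Their surroundings were also without peaks. The nearest peak to Cdkn2a was 175742 bp away in knockdown 2, 285057 bp in knockdown 1 and 363734 bp in knockdown size3, and 460008 bp in control 1. For Cdkn2b these distances were 207558, 268644, 395550 and 491824 bp. Of the 10 genes these were the only ones without a peak of any library within 50 kb. No peak at either gene is the pattern of 9042 protein-coding genes (41.3%).

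**Figure D3:**
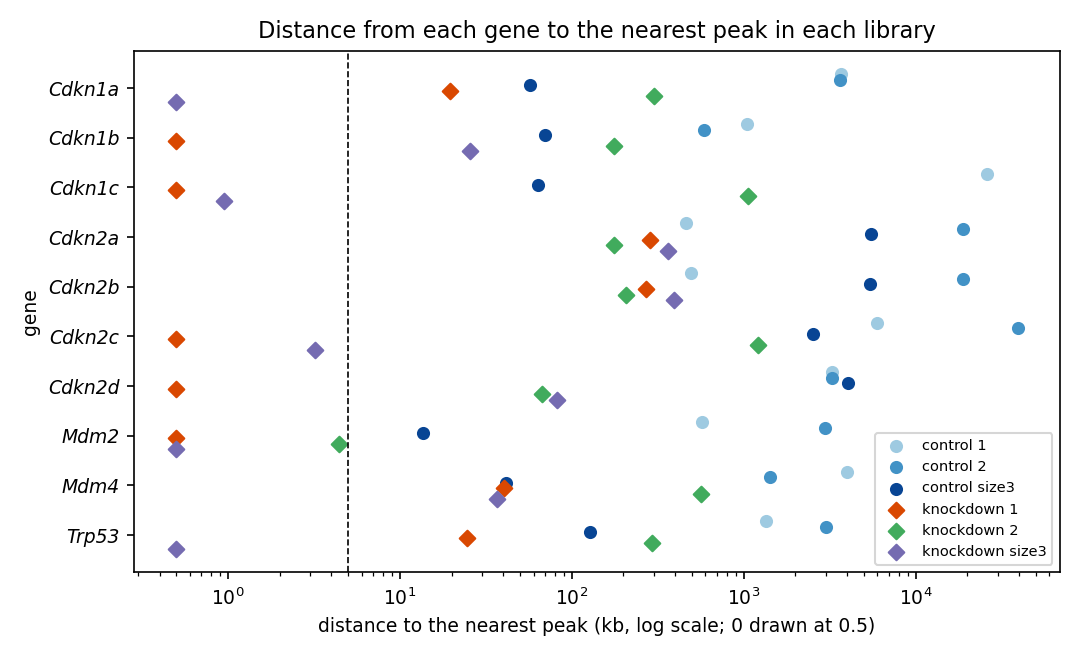
Distance from each of the 10 genes to the nearest peak on its chromosome in each library (kb, log scale, with 0 drawn at 0.5), control libraries as circles, knockdown libraries as diamonds and the limit of 5 kb as a dashed line. Cdkn2a and Cdkn2b have no point closer than 175742 bp, control points lie to the right of the line for every gene, and control 2 has no peak on the chromosome of Cdkn1c.

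Mdm2 (chromosome 10, 117688875 to 117710758) was the one gene of the 10 with a peak in all 3 knockdown libraries, a pattern with no control peak that 515 protein-coding genes (2.35%) shared. It had 3 peaks in knockdown 1, 1 in knockdown 2 and 2 in knockdown size3, and without knockdown 2 the gene had peaks in both remaining libraries. The libraries met at 1 site only, inside the gene about 6 kb from its start. There knockdown 1 had a peak at 117704294 to 117704789 with 27 reads (1.46 RPM) and a fold enrichment of 8.72, at percentile 96.8 of its list, and knockdown size3 one at 117704307 to 117704813 with 20 reads (2.45 RPM) and a fold enrichment of 14, at percentile 98.2. The peaks overlapped by 483 bp and their summits were 52 bp apart. Their false discovery rates were 1.39% and 1.82%. By reads these peaks of knockdown 1 and size3 stood at percentiles 25 and 62.3 of their lists. By width they stood at 7.1 and 21.1, and by score at 84.2 and 98.4.

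The other Mdm2 peaks did not coincide. Knockdown 1 had one upstream of the start at 117712220 to 117712928, with 41 reads and a fold enrichment of 6.86. It ended 1462 bp short of the start, and the promoter bases printed above were covered by no peak. Towards the end of the gene knockdown 1 had a peak at 117691500 to 117692134 (38 reads, fold enrichment 5.81) and knockdown size3 one at 117690317 to 117690812 (14 reads, fold enrichment 8.81), with 688 bp between them. The single peak of knockdown 2, at 117715180 to 117716044, lay 4422 bp upstream of the gene. Its 21 reads gave a fold enrichment of 6.6, at percentile 0.3 of that list, and its false discovery rate was 100%. In control size3 the nearest peak lay 13620 bp beyond the end of Mdm2, inside Cpm, at 117674712 to 117675255, with 15 reads and a false discovery rate of 86.02%.

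Trp53 (chromosome 11, 69580348 to 69591873) had 1 peak, in knockdown size3 inside the gene at 69588585 to 69589347. It was 763 bp wide, with 23 reads (2.81 RPM), a fold enrichment of 7.88 and a false discovery rate of 2.01%, and its summit lay 8486 bp from the start of the gene. The promoter, which adjoins the neighbouring gene Wrap53, was not covered. Knockdown 1 had its nearest peak 24500 bp away, in Shbg.

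Mdm4 (chromosome 1, 132986105 to 133030587), at 44483 bp the longest of the 10 genes, had no peak in any library within 5 kb. The nearest peaks were 36584 bp away in knockdown size3, 40193 bp in knockdown 1 and 41608 bp in control size3. The last of these, at 133072195 to 133072842 in Pik3c2b with 15 reads, lay within the knockdown 1 peak at 133070780 to 133073743, which held 150 reads. This was the one place within 50 kb of the 10 genes where a control peak overlapped a knockdown peak.

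In knockdown 1 the peaks over gene starts were broader and lower than those of Mdm2. The 3 peaks over starts were 1305 to 2265 bp wide with fold enrichments of 2.47 to 4.38, and the 3 peaks of Mdm2 were 496 to 709 bp wide with fold enrichments of 5.81 to 8.72. The other 2 peaks of that list were also broad and low. That beyond the end of Cdkn2c was 1416 bp wide with a fold enrichment of 3.46. That at Cdkn1c was 4377 bp wide with 4.22 and ran past the upper end of the gene. No promoter window was given for Cdkn1c, so whether this peak covered a start is not known here. Over the whole list, peaks at starts were the broader ones. The 2760 peaks of knockdown 1 over the 250 bases before a start had a median width of 1687.5 bp and a median fold enrichment of 3.88, and the other 18638 had 906 bp and 5.2. In knockdown size3 the medians were 935 bp and 6.93 for 1315 such peaks and 634 bp and 8.22 for the others. These medians are descriptions and the arrest genes were not tested against them.

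**Figure D4:**
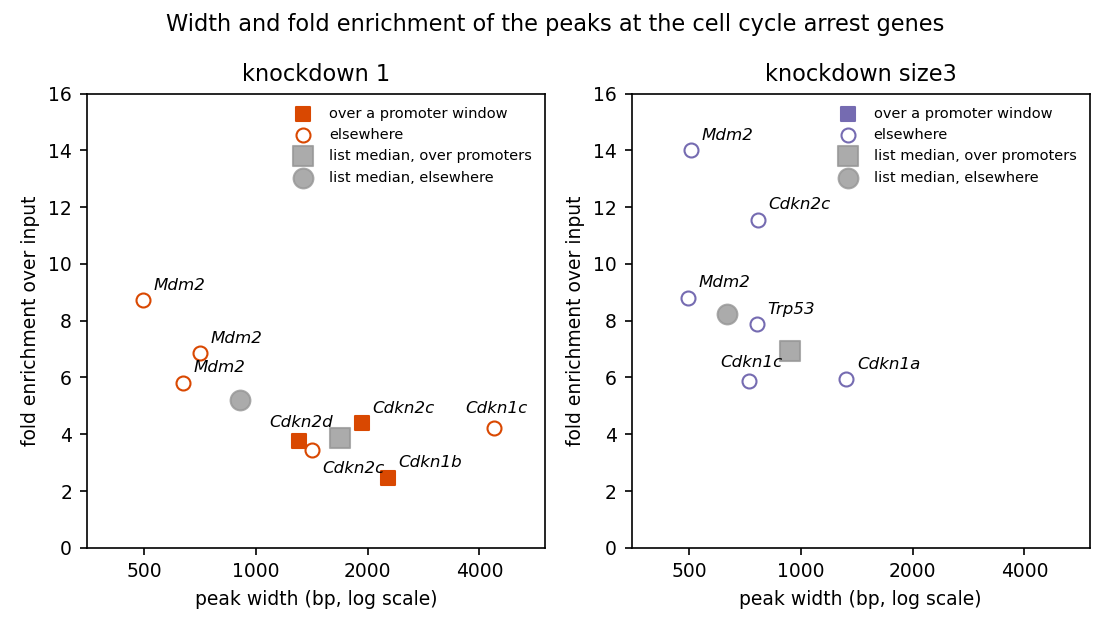
Width (bp, log scale) against fold enrichment over input of the peaks at the cell cycle arrest genes in knockdown 1 (8 peaks) and knockdown size3 (6 peaks), with peaks over the 250 bases before a start as filled squares, other peaks as open circles and the medians of the whole list in grey. In knockdown 1 the Mdm2 peaks are the narrow ones with fold enrichments of 5.81 to 8.72 and the peaks over starts are broader and lower; Cdkn1c, for which no promoter window was given, is drawn among the other peaks.

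Peaks of knockdown 1 and knockdown size3 overlapped at 3 sites of the arrest genes: at Cdkn1c, beyond the end of Cdkn2c and inside Mdm2. These were 3 of the 8 peaks of knockdown 1 (37.5%) and 3 of the 6 of knockdown size3 (50%). Over all peaks in or within 5 kb of protein-coding genes the shares were 10.8% and 13.9%. With 8 and 6 peaks the difference rests on a few sites, and the peaks of 1 gene are not independent.

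Promoter windows were given for 9 of the 10 genes, 13 in all, since several genes have more than 1 start. Knockdown 1 covered 4 of them in part or whole, at Cdkn1b, Cdkn2d and both starts of Cdkn2c, against a background of 16% of 21238 windows. Knockdown size3 covered none (background 7.33%), nor did knockdown 2 (0.0235%) or the control libraries, whose background was 0%, 0.00471% and 0.202%. The inner window of Cdkn2c was covered over 97 of its 250 bases. Across the genome, windows covered in knockdown 1 had a median GC content of 63.2% and 18 CpG dinucleotides, and those not covered 54% and 8. GC content was 64.4% at Cdkn1b, 63.6% at Cdkn2d and 77.2% at the outer start of Cdkn2c, but 65.6% at Mdm2 and 78.4% at the outer start of Cdkn2a, neither of which was covered. The inner window of Cdkn2c, covered in part, had 42.8%. The other uncovered windows ranged from 41.6%, at Mdm4, to 64.8%, at the inner start of Cdkn1a.

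Motifs were searched on both strands of the same 250 bases. The E-box CAGCTG, a form bound by class 1 helix-loop-helix factors, was present in 2 of the 13 windows, those of Mdm2 and of the outer start of Mdm4, and in 12.1% of all windows. The general form CANNTG, which includes CAGCTG, was present in 4 (62.8% of all windows). The E2F site GGCGGGAA was in none of the 13 and in 2.47% of all. The p53 half-site was present in 4, at Cdkn1a, Cdkn2d, Mdm2 and Trp53, and in 6.3% of all. At Cdkn2d, the one covered window among them, the half-site began 102 bases before the start in the promoter table. None of the windows with CAGCTG was covered by a peak. A match is a run of letters and was not shown to be a bound site.

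The genes around these in the pathway were counted in the same way, beside shares of all protein-coding genes of 57.7% with a knockdown peak, 26.1% with one in 2 or more knockdown libraries and 6.7% with a control peak. Of 24 genes of cyclin-dependent kinases, cyclins and Rb proteins, 13 had a knockdown peak (54.2%), 4 of them in 2 or more libraries (16.7%), and 2 a control peak (8.33%). Cdk6, a kinase that Ink4 proteins bind, had 5 peaks, of which 1 each lay in control 1 and control size3. Ccnd3, which encodes a D-type cyclin, had 7 peaks, 3 in knockdown 1, 2 in knockdown size3 and 2 in control size3. The widest, in knockdown 1 at chromosome 17, 47593184 to 47598765, held 317 reads with a fold enrichment of 3.39. Rb1 and Ccnd2 had peaks in 2 knockdown libraries each, and the knockdown 2 peak of Rb1 held 8 reads at a false discovery rate of 100%. No list was tested.

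Of 25 regulators and partners of p53, 17 had a knockdown peak (68%, against 57.7% of all genes), 11 of them in 2 or more libraries (44%, against 26.1%), and 2 had a control peak (8%, against 6.7%). These genes have a median span of 53.3 kb, against 17.2 kb for all genes. Trp53bp1, which encodes a p53-binding protein of the DNA damage response, had 5 knockdown peaks and 2 in control size3, and Hipk2, a kinase gene that acts on p53, had 10 peaks over the 3 knockdown libraries. In Hipk2 the peak of knockdown size3 at chromosome 6, 38876015 to 38876949 (27 reads, fold enrichment 9.8), lay within that of knockdown 1 at 38875130 to 38877040 (150 reads, fold enrichment 4.73). Trp73, a relative of Trp53, had 10 peaks in 2 knockdown libraries and Crebbp, a coactivator gene, 5 peaks in 2. The knockdown 2 peaks of Trp53bp1, Hipk2 and Crebbp held 8 to 10 reads each and had a false discovery rate of 100%.

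Of 30 target genes of p53, 21 had a knockdown peak (70%, against 57.7% of all genes), 5 of them in 2 or more libraries (16.7%, against 26.1%), and 2 had a control peak (6.67%, against 6.7%). Gadd45a, a growth arrest gene of 2312 bp, had a peak of 144 reads and a fold enrichment of 2.88 in knockdown 1. In knockdown size3 it had a peak of 12 reads and 12.7. The Gadd45a peaks, at chromosome 6, 67036454 to 67037801 and 67030409 to 67030827, did not overlap. Apaf1 and Gtse1 had peaks in 2 knockdown libraries each, and Xpc in knockdown size3 and control size3. Of 25 factors known to activate or repress the Cdkn genes, 18 had a knockdown peak (72%, against 57.7% of all genes), 10 of them in 2 or more libraries (40%, against 26.1%), and 2 a control peak (8%, against 6.7%). Rnf2, a Polycomb gene, had overlapping peaks in knockdown 1 (chromosome 1, 151499867 to 151501466, fold enrichment 3.63) and knockdown size3 (151500051 to 151500828, fold enrichment 11.6). E2f1 had 3 peaks, 1 of them in control size3, and Cbx7 and Ets2 had 8 and 4 knockdown peaks. The E2f1 peak of knockdown 2 held 14 reads at a false discovery rate of 100%.

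Genes with a peak pattern like those of the arrest genes were found by the same set of libraries and the closest percentiles of best fold enrichment within each list. Over 3 libraries, Mdm2 (percentiles 96.8, 0.332 and 98.2 in knockdown 1, 2 and size3) was nearest to Slit3 (97.1, 4.19 and 97), Plcl2 and Pbx3. Over knockdown 1 and size3, Cdkn2c (36.2 and 89.1) was nearest to Klhl8 (37.5 and 89.1), Dnali1 and Gnl2, and Cdkn1c (32.1 and 15.6) to Vstm2l (32.6 and 14.9), Prss29 and Sgsm1. The pattern of Cdkn1c and Cdkn2c, peaks in knockdown 1 and size3 and in no other library, was that of 3892 genes (17.8%).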

How the data were processed

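Adapter trimming used cutadapt and alignment to GRCm38 used Bowtie2, per the submitters' processing notes. The authors' peak caller was MACS 1.4.2, run on 1 immunoprecipitate and its input at a time with a p cutoff of 1.00e-05 and 1 read kept per position, per the file headers. The deposited read count of a peak is whole reads after duplicate removal. The deposited score multiplies the negative log10 of the peak's p-value by 10, the deposited fold enrichment is a ratio over the local input background, and the deposited false discovery rate is a percent from swapping immunoprecipitate and input. Percentiles rank a value within its own list, and RPM are reads per 1000000 reads of the immunoprecipitate after duplicate removal. The labels do not explain size3.

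Peaks were joined to RefSeq spans (GRCm38.p6) by an overlap of at least 1 bp with Python 3.11.15, pandas 2.3.3 and SciPy 1.17.1. The gene table has no exons, so exons and introns were not analysed here. Strands and the starts of the promoter windows came from the RefSeq promoter table. Peak positions and distances from a gene start were taken from the 5′ end of the gene span. The window search found 100% of 200 planted genes per list, in simulated lists over 21887 genes. Groups and replicate labels came from sample titles. The members and lists were chosen with earlier results of these data known, and the p53 and cell cycle lists matched every gene. Named genes were all 10 members, at most 4 genes of each further list by number of libraries, peaks and best fold, and the 3 nearest genes by percentile. Alternatives varied the window, score, false discovery rate, overlap, list length, pairing, scale, gene length and each library left out.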

Additional observations from a re-analysis of the deposited data

How the results depend on the processing

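The mean share of protein-coding genes with a peak was higher in knockdown under every alternative run. The difference ranged from 19.3 to 37.2 points with each library left out and was 4.59 points for scores of at least 100. With at most 2000 peaks per list it was 4.34 points (exact permutation p = 0.2, above the smallest possible 0.1). For false discovery rates of at most 5% it was 22.8 points. That limit left the control share at 0%, so a control share above that of knockdown was not possible there. As a replicate block of the labels 1, 2 and size3 the difference was 26.6 points (exact sign-flip p = 0.25, the smallest possible). The number of arrest genes with a knockdown peak was 7 with windows of 0 to 25 kb and 5 to 7 with each library left out. It was 5 at a false discovery rate of at most 5% and 2 at a score of at least 100. With at most 2000 peaks per list, where control 1 and 2 stayed shorter, it was 3. The mean share of all protein-coding genes per knockdown library moved too. It was 24.5% within gene bodies, 29% at 5 kb and 42.4% at 25 kb. At these 3 filters, in the same order, it was 22.8%, 4.64% and 6.6%. A mean per library is not the share of genes with a peak in at least 1 knockdown library. That share was taken for all genes only in the main setting (57.7%). The member counts under the other settings thus have no like background here and do not set the arrest genes apart. The number with peaks in 2 or more knockdown libraries was 3 (26.1% of all genes), but 1 within gene bodies, 2 at 1 kb and 5 at 25 kb. It was 2 at a false discovery rate of at most 5%, 0 at a score of at least 100 and 0 with at most 2000 peaks per list. With each library left out it was 1 to 3. The share of all genes was taken only in the main setting, so these changes are not read as results about the arrest genes. The number with a control peak was 0 except at 25 kb, where it was 1, at Mdm2 in control size3. At a false discovery rate of at most 5% no protein-coding gene had a control peak, so the 0 there was given. No direction reversed. Some peaks rested on few reads. The fewest reads in a peak were 16, 8 and 11 in knockdown 1, 2 and size3. In control 1, 2 and size3 they were 19, 29 and 12.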
